A study of Homo sapiens with 12 samples.

Results

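The genes described here are 7 secreted cytokines: the IL6-type ligands IL6, IL11 and LIF, the IL10-family ligand IL24, and the colony-stimulating factors CSF1, CSF2 and CSF3. They were chosen by symbol, mapped from the Ensembl identifiers of a table of 60651 genes, and all 7 were found. Cells of 2 human cholangiocarcinoma lines, EGI-1 and HUCCT1, were profiled by RNA sequencing after 72 hours (day 3) of treatment. Cholangiocarcinoma is a cancer of the bile duct epithelium. Decitabine is a nucleoside analogue that traps DNA methyltransferases and lowers DNA methylation as cells divide, and talazoparib is an inhibitor of PARP enzymes, which act in DNA repair. EGI-1 was given vehicle (DMSO), 0.5 µM decitabine, 200 nM talazoparib, or both agents together (the combination). HUCCT1 was given vehicle or 1 µM decitabine. Each of the 6 groups had 2 libraries, so 12 in all. The decitabine dose, the culture medium and the sequencing lane differed between the lines, so line, dose, medium and lane cannot be told apart. The lane is read here from a tag in the library names, since no sample title states it. The label dose of talazoparib is used here, although its library names read 50.

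IL6, IL11 and LIF signal through the shared receptor subunit IL6ST together with a ligand-specific receptor, and the JAK kinases bound to these receptors activate STAT3. IL24 signals through IL20RB paired with IL20RA or with IL22RA1. CSF1, CSF2 and CSF3 are best known as growth factors of macrophages, of granulocytes and macrophages, and of neutrophils, and tumour epithelium can secrete all of these ligands, as can senescent cells.

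Library totals ran from 23139065 to 33181930 counts in EGI-1 and from 32519985 to 34965627 in HUCCT1. The 8 biliary epithelial markers, among them EPCAM, KRT7 and KRT19, were detected in every group, with a summed level of 8775 to 9734 CPM in EGI-1 and 8445 to 14870 CPM in HUCCT1. CPM, the count scaled to a fixed library size, was computed within each line. One library stood apart. The second EGI-1 combination library held 381 counts of PTPRC, the pan-leukocyte surface gene CD45, against 2 in the first. It held 148 counts of the T lymphocyte gene CD3E against 0, and 54 counts of CD2 against 0. Over 7 T lymphocyte genes, a list drawn up after these values were seen, this library had 845 counts (29.1 CPM), and the other 11 libraries had 2 to 47. The members' changes in the combination against vehicle and their departures from the summed single agents are given with and without this library. Other calls on named genes that were lost without it are named as such. Its part in the results was not tested beyond that.

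Sequence around the start sites and in the 3′ ends is shown first, since these stretches are where such genes are known to be controlled. Promoters, 250 bases before to 50 after the start, were found in the RefSeq table (GRCh38.p14) for 4 of the 7 members, IL6, IL11, IL24 and CSF2. Capitals mark matches, on either strand, to motifs of factors known to act on these genes. IL6 lies on the plus strand (chr7:22726950-22727249), IL11 on the minus strand (chr19:55370414-55370713) and CSF2 on the plus strand (chr5:132073539-132073838).
IL6: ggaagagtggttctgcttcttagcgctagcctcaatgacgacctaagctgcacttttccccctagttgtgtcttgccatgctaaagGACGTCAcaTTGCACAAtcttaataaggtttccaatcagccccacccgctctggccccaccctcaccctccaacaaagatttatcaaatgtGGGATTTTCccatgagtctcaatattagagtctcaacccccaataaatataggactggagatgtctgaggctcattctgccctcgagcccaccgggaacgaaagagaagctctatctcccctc
IL11: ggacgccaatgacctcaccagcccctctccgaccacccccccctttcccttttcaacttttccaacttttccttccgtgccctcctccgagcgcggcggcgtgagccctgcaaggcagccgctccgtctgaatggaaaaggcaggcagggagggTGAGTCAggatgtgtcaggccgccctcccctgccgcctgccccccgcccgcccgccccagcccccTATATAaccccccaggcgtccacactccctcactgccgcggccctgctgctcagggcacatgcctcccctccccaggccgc
CSF2: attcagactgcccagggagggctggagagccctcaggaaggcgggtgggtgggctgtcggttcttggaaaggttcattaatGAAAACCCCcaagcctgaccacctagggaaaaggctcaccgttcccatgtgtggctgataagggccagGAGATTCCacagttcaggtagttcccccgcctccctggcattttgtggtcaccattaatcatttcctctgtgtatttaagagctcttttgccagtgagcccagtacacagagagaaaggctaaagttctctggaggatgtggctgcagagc
The IL6 promoter held an NF-kB motif (GGGNNTTNC) beginning at -73 from the start, a C/EBP motif (TTGCNCAA) at -155 and, on the opposite strand, a CRE motif (TGACGTC) at -164. The IL11 promoter held an AP-1 motif (TGANTCA) at -96 and a TATATA at -31. The CSF2 promoter held a CK-1 motif (GAGATTCC) at -101 and an NF-kB motif on the opposite strand at -169. IL24 (chr1:206897193-206897492, plus strand) matched only TATATA, at -29. Of 35116 promoters of this length, 16.2% held the NF-kB motif, 7.71% the AP-1 motif, 2.61% the C/EBP motif, 3.45% the CRE motif, 0.869% the CK-1 motif, 11.5% TATAAA and 3.99% TATATA. A match is a stretch of letters and says nothing of binding. CpG sites, the target of DNA methylation, numbered 7 in the IL6 promoter, 19 in IL11, and 4 each in IL24 and CSF2, against a median of 14 over all promoters.

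AU-rich elements in the 3′ untranslated region are known to shorten the life of cytokine mRNAs. The nonamer TTATTTATT occurred 6 times in the 3′ untranslated region of IL11, 3 times in CSF2 and 2 times in LIF, and 0 times in IL6, IL24, CSF1 and CSF3, in the GENCODE MANE Select transcripts. It occurred at least once in 8.6% of 18780 such transcripts. The shorter core ATTTA occurred in all of these members, 9 times in IL11, 8 in CSF2, 7 in LIF and 7 in CSF3. It occurred 6 times in IL6, 4 in CSF1 and 3 in IL24, with no share over all transcripts given here. The windows below, with the nonamers in capitals, lie on the plus strand for CSF2 (chr5:132076073-132076102) and on the minus strand for IL11 (chr19:55365946-55365975) and LIF (chr22:30240957-30240986).
CSF2: tttaaaatatTTATTTATTTATTTATTtaa
IL11: aagccagatcTTATTTATTTATTTATTtca
LIF: ctccgggcccTTATTTATTatttaaacatt

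Compared per length, in TPM (counts divided by length and scaled to a fixed sum) over the union of each gene's exons, LIF was the most abundant member in EGI-1 vehicle at 274.0 TPM, followed by CSF2 at 92.7, CSF1 at 56.4, IL11 at 10.3, IL24 at 5.12, IL6 at 2.33 and CSF3 at 0.228 TPM. The ranges of neighbouring genes in this order did not overlap between the 2 libraries of the group. The order stayed the same in all 4 EGI-1 groups. In HUCCT1 vehicle, LIF was again highest at 110.0 TPM, CSF1 (72.4 TPM) and CSF2 (70.0 TPM) overlapped, and CSF3 was lowest at 0.0516 TPM. In HUCCT1 decitabine the order was different: CSF2 was highest at 701.7 TPM and CSF3 second at 418.1 TPM, IL6 (189.9 TPM), IL11 (176.7 TPM) and LIF (165.2 TPM) followed with overlaps between each and the next, and CSF1 had 116.1 and IL24 15.2 TPM. Ranks of IL6 depended on the length used. With the MANE Select transcript instead, IL6 was highest in HUCCT1 decitabine at 459.4 TPM, overlapping CSF2 at 442.8 TPM, and IL6 lay above IL24 in EGI-1 vehicle and talazoparib and overlapped it in the combination.

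**Figure D1:**
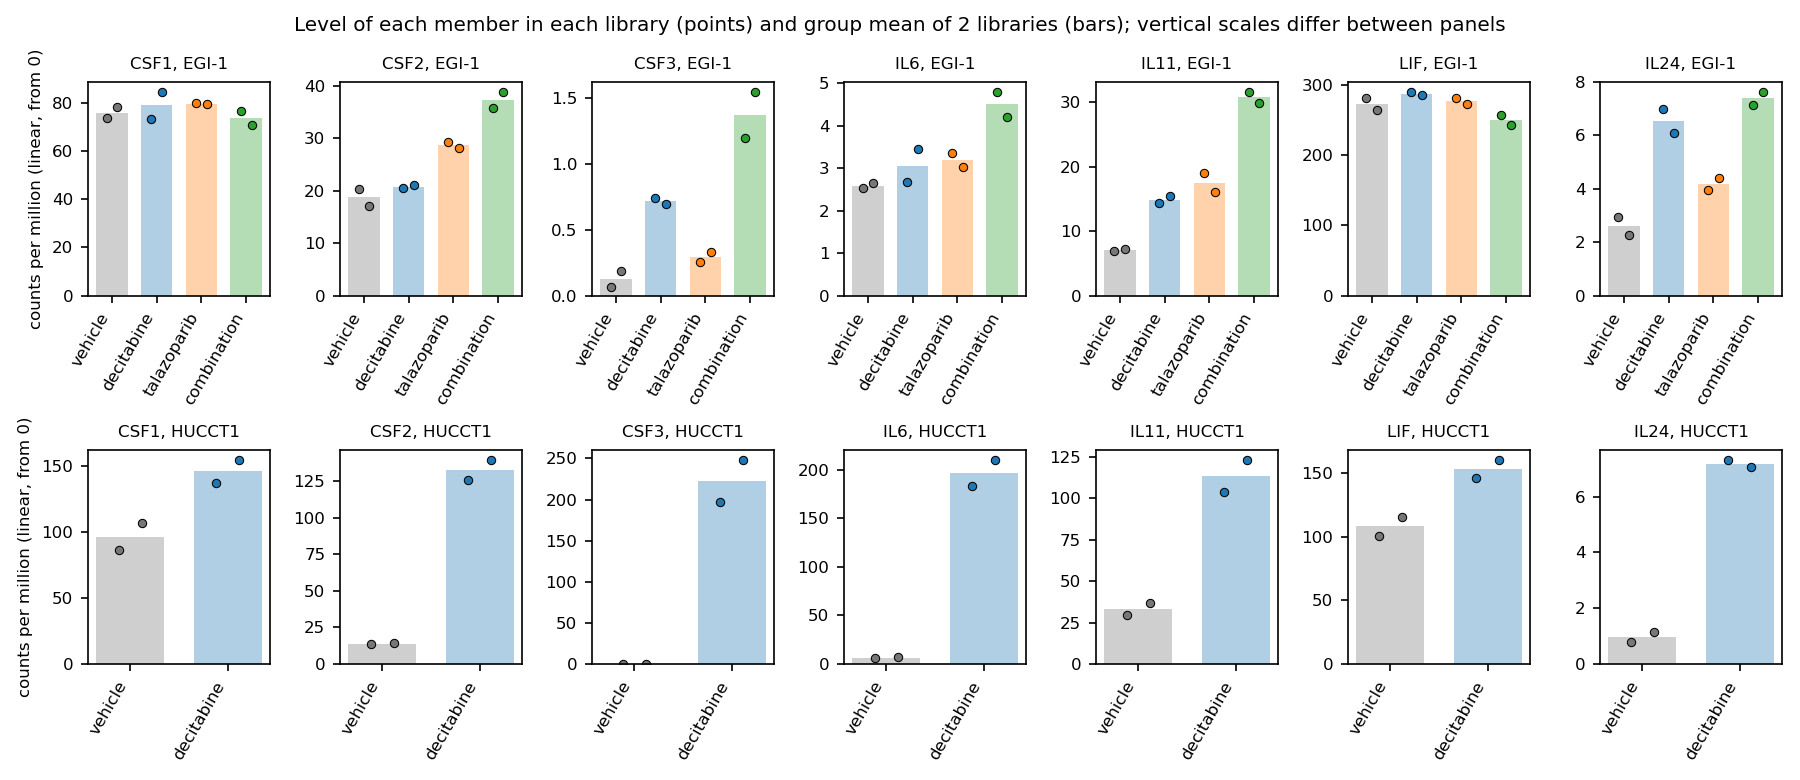
Level of each cytokine gene in CPM on linear axes from 0, with 1 point per library and bars at the mean of the 2 libraries of a group, EGI-1 above and HUCCT1 below. In HUCCT1, IL6 goes from 6.05 and 7.47 to 183.3 and 209.9 CPM, and in EGI-1 the combination points are at 31.6 and 29.9 CPM for IL11 and at 256.9 and 242.2 CPM, the lowest of the panel, for LIF.

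The first comparison asked how the combination changed these genes in EGI-1. IL11, IL24, CSF2 and IL6 rose, and CSF1 and LIF did not pass the test. CSF3 entered the EGI-1 tests only through the groups where it was high, so it is described by its counts and left out of the counts of members called. Of the other 6 members, 4 passed an adjusted p of 0.05 upwards and 0 downwards, where 11.1% of the 22406 genes tested were higher and 7.61% lower. These shares stand for 2489 and 1705 genes, which became 2177 and 2244 with upper-quartile scaling. The median log2 fold change of the 6 members was 0.89, and that of all genes tested was -0.02. All tests were quasi-likelihood tests in edgeR, adjusted by the Benjamini-Hochberg method over all genes, and fold changes are on its fitted log2 scale with a standard error (SE). Nothing in the labels says that the 2 libraries of a group came from separate cultures, so the p-values measure the spread between these libraries, which may be technical. An exact permutation test of 2 against 2 libraries cannot go below p = 0.333 and was not used. These are bulk libraries, in which fewer cells of a type and less RNA per cell cannot be told apart. Of the markers of other cell types, COL1A1 was the 1 fibroblast gene tested in EGI-1 and was higher in the combination, as were 2 of 3 endothelial genes (VWF and CDH5), 1 of 3 leukocyte genes (LYZ) and 3 of 8 biliary genes (SOX9, KRT7 and KRT8). The calls on CDH5 (adjusted p = 0.227) and LYZ (adjusted p = 0.117) were lost without the second combination library. The summed fibroblast level was 30.2 to 32.1 CPM in vehicle and 44.9 to 52.4 CPM in the combination, with DCN and LUM at 0 in both, and the summed endothelial level 20.9 to 22.3 and 30 to 31.2 CPM. Their part in the members' changes was not tested.

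Among the IL6-type ligands, IL11, known for its part in fibrosis and epithelial tumours, stood at 6.96 and 7.23 CPM with vehicle and at 31.6 and 29.9 CPM with both agents. The single agents lay between, with 14.3 and 15.4 CPM under decitabine and 19 and 16.0 CPM under talazoparib. The 4 EGI-1 groups did not overlap. The combination was higher than vehicle by 2.11 on the log2 scale (SE 0.114, adjusted p = 1.0e-09 by edgeR), which is 4.33-fold. Without the second combination library the log2 fold change was 2.16 (adjusted p = 5.9e-08).

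IL6, the founding member of the family and an inducer of the acute-phase response, was low in EGI-1. It had 2.53 and 2.65 CPM in vehicle, 2.68 and 3.44 under decitabine, 3.35 and 3.02 under talazoparib, and 4.80 and 4.20 CPM in the combination. The combination libraries lay above the other 6, and the single agents overlapped each other. The log2 fold change of the combination against vehicle was 0.79 (SE 0.201, adjusted p = 9.7e-03, edgeR), and 0.89 (adjusted p = 0.0258) without the second combination library. The call was lost without the first vehicle, the second vehicle or the first combination library, at adjusted p = 0.0929, 0.0643 and 0.0689.

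LIF, a ligand known for keeping mouse stem cells undifferentiated, was abundant in EGI-1 and moved little. Its CPM was 280.7 and 264.4 in vehicle, 290.3 and 285.1 under decitabine, 281.7 and 272.5 under talazoparib, and 256.9 and 242.2 in the combination. The combination was below every other group without overlap, but its log2 fold change against vehicle of -0.13 did not pass (SE 0.0575, adjusted p = 0.14, edgeR). Without the second combination library the log2 fold change was -0.08.

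IL24, a cytokine known for inducing death of tumour cells when overexpressed, had 2.94 and 2.27 CPM in vehicle, 6.98 and 6.10 under decitabine, 3.96 and 4.41 under talazoparib, and 7.16 and 7.64 CPM in the combination. The groups did not overlap. Against vehicle, the combination was higher by 1.5 (SE 0.175, adjusted p = 9.7e-06, edgeR) and by 1.45 without its second library. IL24 overlaps FCMR, a gene of lymphocytes, on the opposite strand. FCMR had 181 counts in the first combination library and 361 in the second, and its log2 fold change of 0.96 (adjusted p = 1.7e-03) became 0.57 (adjusted p = 0.0601) without that library.

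CSF2, which encodes GM-CSF, had 20.4 and 17.1 CPM in vehicle, 20.5 and 21.1 under decitabine, 29.4 and 28.2 under talazoparib, and 35.8 and 38.9 CPM in the combination. Talazoparib and combination libraries lay above all vehicle and decitabine libraries. The combination was 1.99-fold vehicle, a log2 fold change of 0.99 (SE 0.0976, adjusted p = 1.5e-06, edgeR), and 0.93 (adjusted p = 8.5e-05) without its second library.

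CSF3, which encodes G-CSF, was close to the detection limit, with 2 and 5 counts in vehicle, 21 and 18 under decitabine, 6 and 11 under talazoparib, and 28 and 45 in the combination. The vehicle and talazoparib libraries lay below those of decitabine and the combination. By pooled counts, 73 against 7, the combination was 10.9 times vehicle (95% exact interval 5.05 to 28.2, counting error only). The fitted log2 fold change was 3.40, and 3.20 without the second combination library.

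CSF1, the growth factor of macrophages, had 73.7 and 78.0 CPM in vehicle, 73.1 and 84.5 under decitabine, 80.0 and 79.2 under talazoparib, and 76.7 and 70.7 CPM in the combination. The range of decitabine overlapped that of every other group, and the log2 fold change of the combination against vehicle was -0.04 (95% interval -0.20 to 0.12, adjusted p = 0.761, edgeR). Without the second combination library it was 0.02.

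**Figure D2:**
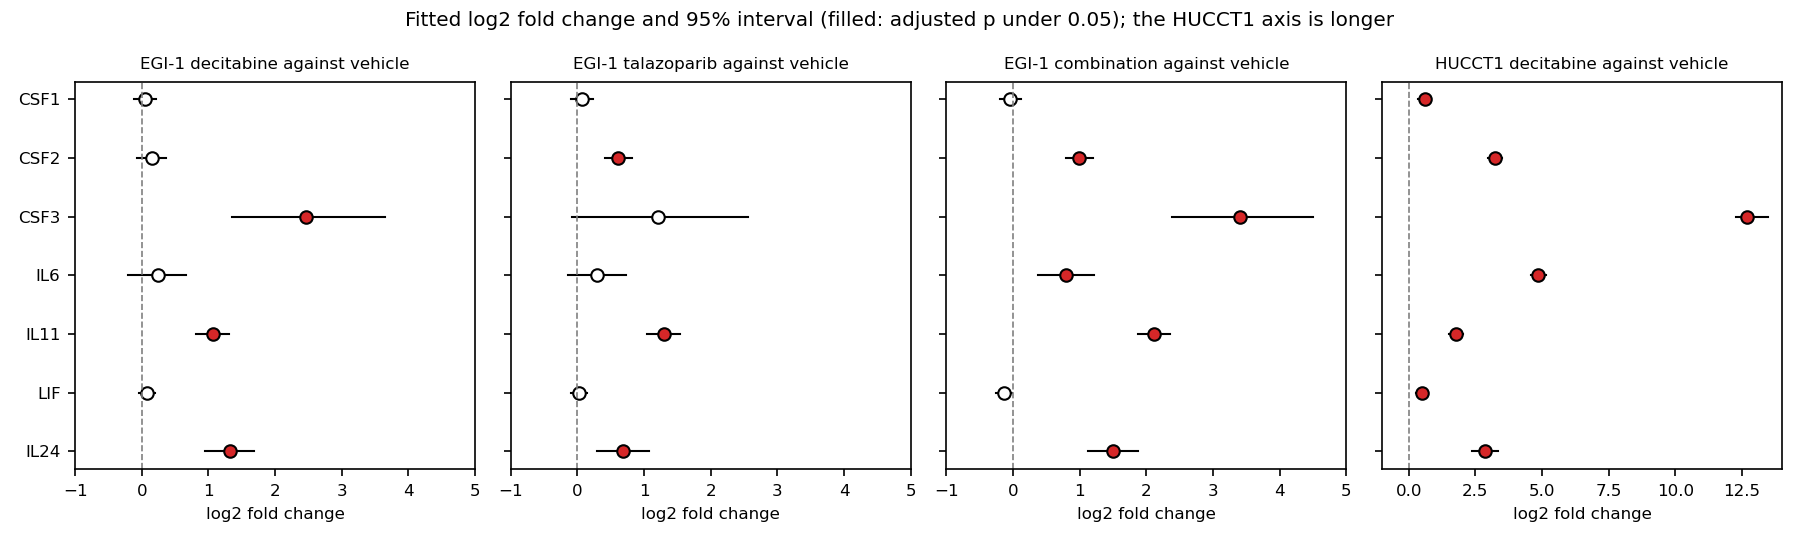
Fitted log2 fold change against vehicle of each cytokine gene with its 95% interval, in 4 panels by treatment and line, filled where the adjusted p was under 0.05. CSF3 lies farthest right in the EGI-1 decitabine, combination and HUCCT1 panels, at 2.46, 3.40 and 12.70. It entered these tests only through the groups where it was high. Its filled point under EGI-1 decitabine did not pass by DESeq2 (adjusted p = 0.134).

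The single agents were then set beside vehicle. Decitabine raised 2 of the 6 members other than CSF3 in EGI-1, against 0.518% of all genes called higher. IL24 rose by 1.32 (SE 0.176, adjusted p = 1.2e-03, edgeR) and IL11 by 1.07 (SE 0.118, adjusted p = 2.3e-04). By pooled counts, 39 against 7, CSF3 was 5.61 times vehicle (95% exact interval 2.48 to 14.9). Its fitted log2 fold change of 2.46 was 1.89 without the first vehicle library and 3.29 without the second. IL24 missed the threshold without the second vehicle library (adjusted p = 0.0611), which left IL11.

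Talazoparib raised 3 of these 6 members, against 2.83% of all genes called higher. These were IL11 by 1.30 (SE 0.117, adjusted p = 4.1e-06, edgeR), CSF2 by 0.61 (SE 0.0982, adjusted p = 1.1e-03) and IL24 by 0.68 (SE 0.182, adjusted p = 0.0419). The IL24 call was lost in each fit that left out a vehicle or talazoparib library (adjusted p 0.0993 to 0.444), and without the second vehicle library CSF2 also missed the threshold (adjusted p = 0.064), leaving IL11. CSF3 had 17 counts against 7, a ratio of 2.37 (95% exact interval 0.935 to 6.77). Both single-agent comparisons share the vehicle libraries, so their values are not independent.

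Adding talazoparib to decitabine was read from the combination against decitabine. IL11 was higher by 1.05 (SE 0.107, adjusted p = 6.1e-06, edgeR) and CSF2 by 0.85 (SE 0.0970, adjusted p = 2.5e-05), 2 of these 6 members where 4.42% of all genes were higher. LIF was lower by a log2 fold change of -0.21 (SE 0.0575, adjusted p = 0.0359), 1 of 6 where 3.26% of all genes were lower. The LIF log2 fold change was -0.16 without the second combination library, -0.25 without the first and -0.20 without the first decitabine library. Its call was lost in each of these fits. It was also lost in a fit of the libraries of both arms alone (-0.20, adjusted p = 0.141, edgeR). IL24 differed by 0.18 (95% interval -0.16 to 0.52, adjusted p = 0.575).

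Adding decitabine to talazoparib was read from the combination against talazoparib. IL11 was higher by 0.82 (SE 0.105, adjusted p = 2.3e-04, edgeR), IL24 by 0.82 (SE 0.165, adjusted p = 0.0137) and CSF2 by 0.38 (SE 0.0949, adjusted p = 0.0497), 3 of these 6 members where 1.36% of all genes were higher. Without the second combination library only IL11 passed, with IL24 at 0.77 (adjusted p = 0.142) and CSF2 at 0.32 (adjusted p = 0.362). CSF3 had 73 counts in the combination and 17 under talazoparib. Likewise 1 of the 3 calls was left without either the first or the second talazoparib library. The CSF2 call was also lost without the first combination library (0.44) and with upper-quartile scaling (0.36, adjusted p = 0.0601, edgeR). IL11 was thus the one member called higher in all 5 EGI-1 comparisons above, and CSF1 was called in none of them.

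The combination was also set against the sum of the single-agent changes on the log2 scale. Of the 7 members, 0 departed from that sum at an adjusted p under 0.05 by edgeR, 1 had an unadjusted p under 0.05, and 0 passed by DESeq2, where 0.161% of all genes departed by edgeR. The smallest unadjusted p was that of LIF, 0.0117, with a departure of -0.23 (95% interval -0.40 to -0.06). IL11 rose by 2.12 where the single agents summed to 2.36, a departure of -0.25 (95% interval -0.58 to 0.09). IL24 rose by 1.5 against a sum of 2.01 (departure -0.50, interval -1.02 to 0.01). CSF2 and IL6 lay above their sums by 0.23 (interval -0.06 to 0.52) and 0.26 (interval -0.34 to 0.86). CSF3 had the widest interval, -1.87 to 1.28, so departures up to these sizes could not be told from 0 at its depth. Without the second combination library the departure of LIF was smaller, at -0.18. Those of IL11, IL24, CSF2 and IL6 were then -0.20, -0.55, 0.17 and 0.36. CSF1 had -0.10 (-0.17 with that library) and CSF3 -0.47 (-0.27 with it).

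**Figure D3:**
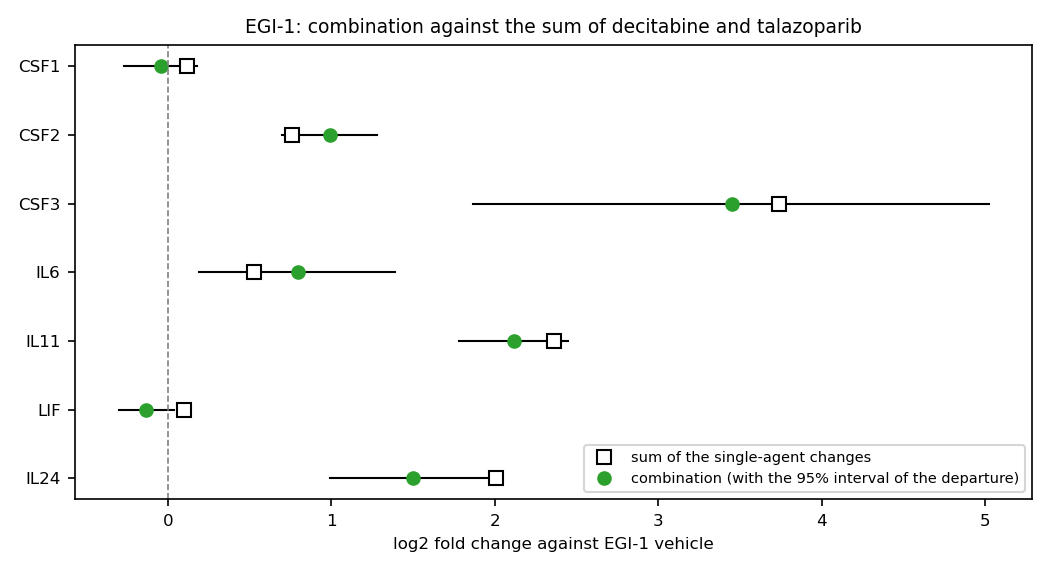
Log2 fold change of the combination against EGI-1 vehicle (filled circles, with the 95% interval of the departure) and the sum of the decitabine and talazoparib changes (open squares). The square lies inside the interval for CSF1, CSF2, CSF3, IL6, IL11 and, at its edge, IL24, and outside it for LIF, whose departure was -0.23. The LIF departure was -0.18 without the second combination library, a fit that is not drawn.

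Decitabine in HUCCT1 raised each of the 6 members other than CSF3, where 19.6% of the 22479 genes tested were called higher and 13.9% lower. Their median log2 fold change was 2.32 against 0.00 over all genes. Both decitabine libraries lay above both vehicle libraries for each of these 6, as they did for 33.9% of all genes tested. CSF3 had 0 and 2 counts in vehicle and 7010 and 8225 under decitabine. It entered this test only through the decitabine libraries. By pooled counts, 15235 against 2, decitabine was 7828 times vehicle (95% exact interval 2167 to 64642), while the fitted log2 fold change of 12.70 depends on the prior count of the model. IL6 went from 6.05 and 7.47 CPM to 183.3 and 209.9 CPM, a log2 fold change of 4.86 (SE 0.141, adjusted p = 4.9e-19, edgeR). CSF2 went from 13.5 and 14.5 to 125.7 and 139.2 CPM, a rise of 3.24 (SE 0.123, adjusted p = 1.0e-16).

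The other 4 members rose less in HUCCT1 decitabine. IL24 had 0.809 and 1.16 CPM in vehicle and 7.31 and 7.05 CPM under decitabine, a rise of 2.87 (SE 0.236, adjusted p = 4.4e-10, edgeR). IL11 went from 29.5 and 37.0 to 103.8 and 122.9 CPM, a rise of 1.77 (SE 0.126, adjusted p = 2.9e-11). CSF1 went from 85.9 and 106.7 to 137.1 and 154.2 CPM, a rise of 0.60 (SE 0.117, adjusted p = 2.5e-04). LIF went from 100.8 and 115.4 to 146.0 and 160.2 CPM, a rise of 0.50 (SE 0.110, adjusted p = 8.3e-04). Markers of other cell types moved in these libraries too. All 4 endothelial markers (PECAM1, VWF, CDH5 and KDR) were called higher, with a summed level of 3.79 to 4.97 CPM in vehicle and 23.2 to 24.2 CPM under decitabine. Of the 7 fibroblast markers 5 were tested, and COL1A1, COL1A2, PDGFRA and PDGFRB were higher and LUM lower, the sum going from 33.8 to 34.0 CPM in vehicle to 152.4 to 177.6 CPM, with DCN at 0 in vehicle. Of the 3 leukocyte markers tested, 2 were higher (CD3E and ITGAM). CD3E had 0 and 1 counts in vehicle and entered the test only through the decitabine libraries, with 17 and 23 counts. KDR (3.87, SE 0.711), COL1A2 (5.53, SE 0.633) and PDGFRA (3.82, SE 0.649) had large standard errors and did not pass the filter in the EGI-1 fit. Their vehicle counts are not given here. They too may have entered the HUCCT1 test only through the decitabine libraries, where only a higher call was possible. Of the 8 biliary markers 1 was higher (CDH1) and 5 lower, with KRT18 at -0.90 and KRT8 at -0.82, and their sum fell from 13439 to 14870 CPM to 8445 to 9584 CPM. The part of these shifts in the members' changes was not tested.

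Between the vehicle groups, which differ in line, medium and lane, 3 of these 6 members were higher in HUCCT1 (28.5% of 25096 genes were) and 2 were lower (27.3% were). IL11 was higher by 2.45 (SE 0.132, adjusted p = 8.2e-13, edgeR), IL6 by 1.61 (SE 0.157, adjusted p = 1.3e-08) and CSF1 by 0.57 (SE 0.101, adjusted p = 5.4e-05). LIF was lower in HUCCT1, with a log2 fold change of -1.11 (SE 0.0812, adjusted p = 1.4e-10), as was IL24 at -1.18 (SE 0.231, adjusted p = 1.5e-04). CSF2 at -0.20 (95% interval -0.42 to 0.02) and CSF3, with 7 counts against 2 over both libraries, did not pass. Upper-quartile scaling moved the median of all genes in this comparison from -0.01 to -0.13, and CSF2 then passed at -0.32 (adjusted p = 0.011), as it did without the second EGI-1 vehicle library (-0.32, adjusted p = 0.0449).

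The decitabine change was larger in HUCCT1 than in EGI-1 for each of the 6 members other than CSF3, in a test of the difference itself where 8.74% of all genes were larger in HUCCT1. The difference on the log2 scale was 4.64 for IL6 (SE 0.225, adjusted p = 3.4e-12, edgeR), 3.11 for CSF2 (SE 0.144, adjusted p = 1.7e-12) and 1.56 for IL24 (SE 0.288, adjusted p = 5.9e-04). It was 0.72 for IL11, 0.56 for CSF1 and 0.44 for LIF (adjusted p = 7.3e-03, 8.8e-03 and 9.6e-03). For CSF3 it was 10.25, a fitted value that rests on 2 HUCCT1 and 7 EGI-1 vehicle counts. The doses were 1 µM and 0.5 µM, so these are differences between the experiments and not between the lines alone. The CSF1 difference missed the threshold without 1 of 4 libraries in turn (adjusted p 0.0517 to 0.0606) and that of LIF without 1 of 3 (adjusted p 0.055 to 0.0877).

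**Figure D4:**
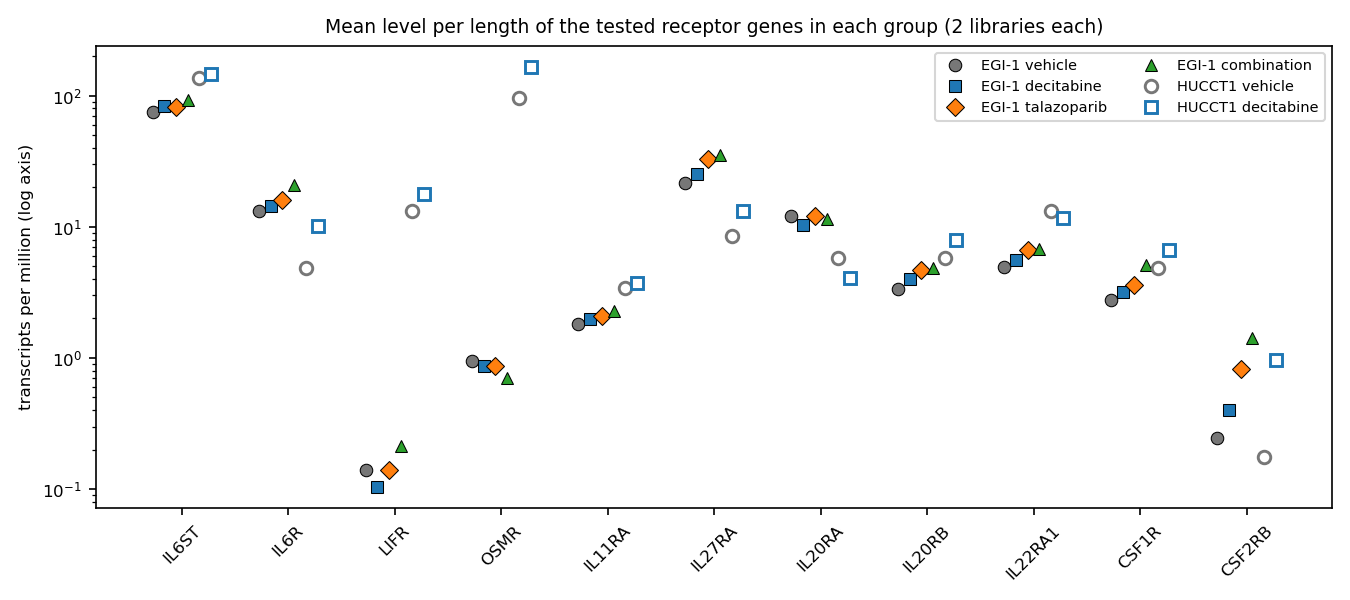
Mean level of the 11 tested receptor genes in the 6 groups, in TPM on a log axis, filled symbols for EGI-1 and open symbols for HUCCT1. LIFR and OSMR differ most between the lines, near 0.139 against 13.1 and 0.942 against 96.2 TPM in vehicle.

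Receptors of these ligands were given by a list of 14 genes, of which 11 passed the filter. In the combination 5 were higher and 0 lower, where 11.1% and 7.61% of all genes were. In HUCCT1 decitabine 5 were higher and 1 lower, where 19.6% and 13.9% of all genes were, and these shares also stand behind the counts of the lists that follow. IL6ST, the shared subunit, was the most abundant in EGI-1 at 75.4 TPM in vehicle and 92.1 TPM in the combination, a log2 fold change of 0.25 (adjusted p = 0.0405, edgeR), lost without the second combination library (0.14, adjusted p = 0.35). In HUCCT1 it had 136.7 TPM in vehicle and 147.1 under decitabine. IL6R, the IL6-binding chain, rose by 0.60 in the combination (adjusted p = 1.5e-04) and by 0.97 in HUCCT1 (adjusted p = 5.7e-06), from 13.3 to 20.7 TPM and from 4.87 to 10.1 TPM. IL11RA, the IL11-binding chain, had 1.80 and 2.28 TPM in EGI-1 vehicle and combination and 3.40 and 3.70 TPM in HUCCT1, and passed in neither line.

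The receptors LIFR and OSMR, which pair with IL6ST to bind LIF and oncostatin M, were low in EGI-1, LIFR near the detection limit. LIFR had 12 counts in each EGI-1 vehicle library and 1270 to 1440 counts in HUCCT1 vehicle, a log2 difference of 6.75 (SE 0.212, adjusted p = 9.3e-17, edgeR). OSMR had 46 to 50 counts in EGI-1 vehicle and 5729 to 6002 in HUCCT1 vehicle, a log2 difference of 6.87 (SE 0.139, adjusted p = 7.0e-20). In HUCCT1, decitabine raised OSMR by 0.71 (adjusted p = 9.5e-06) and LIFR by 0.37 (adjusted p = 0.0191). In EGI-1, the line with the higher LIF level, LIFR (0.55, adjusted p = 0.506) and OSMR (-0.46, adjusted p = 0.323) did not pass in the combination. CNTFR, the receptor of ciliary neurotrophic factor, had 0 to 3 counts in every library. IL27RA rose by 0.65 in the combination (adjusted p = 4.1e-04) and by 0.54 in HUCCT1 (adjusted p = 0.0156).

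IL20RA, a chain that pairs with IL20RB in an IL24 receptor, had 12 TPM in EGI-1 vehicle and 11.5 TPM in the combination. It fell by 0.59 on the log2 scale in HUCCT1 decitabine, from 5.76 to 4.04 TPM (adjusted p = 0.0133, edgeR). IL20RB (3.35 TPM in EGI-1 and 5.80 TPM in HUCCT1 vehicle), which pairs with either IL20RA or IL22RA1, and IL22RA1 (4.92 and 13.3 TPM) passed in neither treatment. CSF1R, the receptor of CSF1, rose from 2.78 to 5.14 TPM in the combination, a log2 fold change of 0.85 (adjusted p = 1.5e-03), and by 0.38 in HUCCT1 (adjusted p = 0.0781). CSF2RB, the shared beta chain for CSF2, had 7 to 10 counts in EGI-1 vehicle and 35 and 59 in the combination. Its rise there was 2.51 (adjusted p = 2.6e-04), and 2.27 without the second combination library. In HUCCT1 it had 5 and 10 counts in vehicle and 49 and 31 under decitabine, a rise of 2.36 (adjusted p = 3.4e-04). In both lines CSF2RB entered the tests only through treated libraries, and it is among the 5 receptors called higher in each. CSF3R had 0 to 3 counts in every library, also under HUCCT1 decitabine, where CSF3 itself was high. CSF2RA was listed at 0 in 11 of 12 libraries. It lies in the pseudoautosomal region, where reads match both X and Y copies, and how such reads were counted is not stated, so its level is not known from these counts.

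Of the other IL6-type ligands, 6 of 7 were tested. EBI3, a subunit shared by IL27 and IL35, rose by 2.00 in the combination (adjusted p = 3.6e-04, edgeR), where its counts went from 13 to 20 up to 46 to 82, and by 5.75 in HUCCT1 decitabine (adjusted p = 2.6e-12), where it had 2 to 6 counts in vehicle and 204 to 247 under decitabine. Its rise in EGI-1 was 1.71 (adjusted p = 0.0102) without the second combination library. OSM, the neighbour of LIF on chromosome 22, rose by 1.93 in HUCCT1 (adjusted p = 7.8e-04), CTF1 rose by 1.00 (adjusted p = 3.1e-03) and CLCF1 fell by 0.44 (adjusted p = 6.3e-03). CNTF fell by 0.76 in the combination (adjusted p = 0.0498), a call that was lost with DESeq2 size factors, by DESeq2, with either replicate block and without any 1 vehicle or combination library (adjusted p = 0.272 without the second combination library). The list thus had 1 higher and 1 lower in the combination and 3 higher and 1 lower in HUCCT1. EBI3 and OSM, which are among the 3 called higher, entered the HUCCT1 test only through the decitabine libraries. None of the 5 IL20-type and IL10 ligands (IL10, IL19, IL20, IL22 and IL26) passed the filter in either line, so IL24 was the only tested ligand of its family.

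Among 8 other growth factor ligands, 5 were tested in EGI-1, with 0 higher and 2 lower in the combination, and 6 in HUCCT1, with 2 higher and 1 lower. KITLG, the ligand of the KIT receptor, fell by 0.57 in the combination (adjusted p = 5.6e-03, edgeR) and by 1.08 in HUCCT1 (adjusted p = 8.7e-07). IL15 fell by 0.61 in the combination (adjusted p = 0.0175), which was lost without the second combination library (-0.52, adjusted p = 0.145). IL7 rose by 2.22 in HUCCT1 (adjusted p = 1.5e-06). TSLP, an epithelial cytokine of allergic inflammation, had 0 counts in both HUCCT1 vehicle libraries and 23 and 20 under decitabine, at least 14.7-fold higher against a floor of 3 counts over the group. It entered the test only through the decitabine libraries, and is among the 2 called higher in HUCCT1.

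All 12 JAK-STAT transducers on the list were tested, with 5 higher and 0 lower in the combination and 4 higher and 1 lower in HUCCT1 (all genes 11.1%, 7.61%, 19.6% and 13.9%), and median log2 fold changes of 0.21 and 0.11. JAK3, a kinase best known from lymphocytes, rose by 1.92 in the combination (adjusted p = 1.7e-04, edgeR), with 57 and 34 counts in vehicle, 99 in the first and 235 in the second combination library, and by 1.37 (adjusted p = 4.9e-03) without the latter. In HUCCT1 it rose by 5.07 (adjusted p = 1.8e-10), with 3 to 4 counts in vehicle and 114 to 135 under decitabine. JAK3 entered the HUCCT1 test only through the decitabine libraries and is among the 4 called higher there. STAT5A rose by 0.56 in the combination (adjusted p = 8.5e-04) and by 0.94 in HUCCT1 (adjusted p = 2.4e-07). The adaptor SHC1 rose by 0.34 in the combination (adjusted p = 6.2e-04). JAK1 and JAK2 each rose by 0.44 in HUCCT1 (adjusted p = 2.0e-03 and 4.0e-03), and the adaptor GAB1 fell by 0.59 (adjusted p = 1.9e-03). STAT3 itself rose by 0.16 in the combination (adjusted p = 0.0424), a call that was lost without the second combination library (adjusted p = 0.148), and had 0.18 in HUCCT1 (adjusted p = 0.188).

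Of 9 negative regulators, 2 were higher and 1 lower in the combination and 2 higher and 3 lower in HUCCT1 (all genes 11.1%, 7.61%, 19.6% and 13.9%). SOCS3, a feedback inhibitor that IL6-type cytokines induce, rose by 0.59 in the combination (adjusted p = 9.1e-06, edgeR) and by 0.90 in HUCCT1 (adjusted p = 5.7e-07). SOCS1 rose by 1.66 in HUCCT1 (adjusted p = 2.1e-07) and had 0.15 in the combination (adjusted p = 0.676). The STAT inhibitor PIAS3 fell by 0.39 in the combination (adjusted p = 3.5e-03, and 0.0649 without the second combination library) and by 0.37 in HUCCT1 (adjusted p = 0.0132), and PIAS1 fell by 0.44 in HUCCT1 (adjusted p = 7.3e-03). The phosphatase PTPN1 rose by 0.28 in the combination (adjusted p = 2.4e-03) and fell by 0.29 in HUCCT1 (adjusted p = 0.0376).

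A list of 34 STAT3 and acute-phase targets had 22 tested genes in EGI-1, with 8 higher and 2 lower in the combination and a median log2 fold change of 0.10, against -0.02 over all genes. In HUCCT1 it had 24 tested genes, with 17 higher and 3 lower and a median of 0.60, against 0.00 over all genes. SERPINA3, among those called higher (4.95, SE 0.995), did not pass the filter in the EGI-1 fit. Its standard error equals that of CD3E, which entered the HUCCT1 test only through the decitabine libraries. SERPINA3 may have entered in the same way, and its vehicle counts are not given here. The acute-phase gene SAA1 rose by 0.68 in the combination (adjusted p = 4.5e-06, edgeR) and by 3.34 in HUCCT1 (adjusted p = 7.9e-17), and its near-identical paralogue SAA2, whose reads could be split between both, rose by 3.61 in HUCCT1 (adjusted p = 7.9e-17). The iron-binding lipocalin LCN2 rose by 0.64 in the combination (adjusted p = 0.039, and 0.149 without the second combination library) and by 3.11 in HUCCT1 (adjusted p = 5.8e-17). The adhesion receptor ICAM1 rose by 1.01 (adjusted p = 1.1e-07) and 2.93 (adjusted p = 1.6e-16), and the complement gene C3 by 0.46 (adjusted p = 3.2e-06) and 1.33 (adjusted p = 1.9e-10). FOS fell by 1.55 in HUCCT1 (adjusted p = 4.5e-11) and had -1.51 in the combination (adjusted p = 0.0728). Of the liver acute-phase genes, LBP, CRP, HP, FGA, FGB, FGG, ORM1, ORM2, HAMP and CFB did not pass the filter in either line. Several of these genes also respond to NF-kB. SOCS3 is in both lists.

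The 13 regulators of AU-rich mRNA decay were all tested, with 2 higher and 2 lower in the combination and 4 higher and 3 lower in HUCCT1 (all genes 11.1%, 7.61%, 19.6% and 13.9%). ZC3H12A, a nuclease known to degrade IL6 mRNA, rose by 3.21 in HUCCT1 (adjusted p = 1.3e-16, edgeR) and fell by 0.18 in the combination (adjusted p = 0.0469), which was lost without the second combination library (-0.14, adjusted p = 0.286). Its relative ZC3H12C rose by 1.09 in HUCCT1 (adjusted p = 2.8e-08). Of the ZFP36 family, which binds AU-rich elements and promotes decay, ZFP36 fell by 0.56 (adjusted p = 8.0e-04), ZFP36L1 fell by 0.45 (adjusted p = 1.5e-03) and ZFP36L2 rose by 0.51 (adjusted p = 8.8e-04) in HUCCT1. ARID5A, known to stabilise IL6 mRNA, rose by 0.70 in the combination (adjusted p = 8.3e-05) and by 0.53 in HUCCT1 (adjusted p = 2.6e-03). Of 4 genes of ligand and receptor shedding, 0 were higher and 1 lower in the combination (ADAM17 at -0.22, adjusted p = 0.0282, and 0.052 without the second combination library), and 0 were higher and 2 lower in HUCCT1 (ADAM10 at -0.42, adjusted p = 4.7e-03, and RHBDF2 at -0.38, adjusted p = 8.8e-03). Without the second combination library the combination counts were 4 higher and 0 lower for receptors, 4 and 0 for JAK-STAT transducers, 2 and 0 for negative regulators, 7 and 2 for STAT3 and acute-phase targets, 1 and 1 for decay regulators, 1 and 0 for IL6-type ligands, 0 and 1 for other growth factor ligands and 0 and 0 for shedding, where 6.88% of all genes were higher and 3.85% lower. Of the 4 decay regulators called with it, ARID5A was still called, ZC3H12A, HNRNPD (adjusted p = 0.138) and ZFP36L2 (adjusted p = 0.0631) were not, and the 1 lower was TIA1 (-0.38, adjusted p = 0.0189). HNRNPD and TIA1 were named after their values were seen.

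Neighbouring genes were read to see whether members rose with their surroundings (GRCh38, GENCODE coordinates). CSF3 (ENSG00000108342.13, chromosome 17, 40015361 to 40017813, plus strand) lies between PSMD3, 17.4 kb away, and MED24, 1.3 kb away. In HUCCT1 decitabine PSMD3 had a log2 fold change of 0.01 (95% interval -0.21 to 0.23, adjusted p = 0.942, edgeR) and MED24 fell by 0.61 (adjusted p = 8.2e-05). IL11 (ENSG00000095752.7, chromosome 19, 55364382 to 55370463, minus strand) has GARIN5B 1.1 kb away, which rose by 1.53 in HUCCT1 (adjusted p = 0.0276), and TMEM190 6.4 kb away, which had -0.26 (adjusted p = 0.714). GARIN5B, with 7 to 8 counts in HUCCT1 vehicle, entered the test only through the decitabine libraries. CSF2 (ENSG00000164400.6, chromosome 5, 132073789 to 132076170, plus strand) lies 10.6 kb from IL3, which did not pass the filter, and 114.0 kb from P4HA2, which rose by 0.73 in HUCCT1 (adjusted p = 7.7e-06) and 0.47 in the combination (adjusted p = 2.1e-04). CSF1 (ENSG00000184371.14, chromosome 1, 109910242 to 109930992, plus strand) has AHCYL1 53.8 kb away, at 0.09 in HUCCT1 (adjusted p = 0.565).

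The surroundings of LIF, IL24 and IL6 were read in the same way. In HUCCT1 decitabine 19.6% of all genes tested were higher and 13.9% lower, which stands behind the neighbours of all members. LIF (ENSG00000128342.5, chromosome 22, 30240453 to 30246759, minus strand) lies 16.1 kb from OSM, described above. IL24 (ENSG00000162892.16, chromosome 1, 206897443 to 206904139, plus strand) lies 24.4 kb from PIGR, the transporter of IgA, which rose by 2.53 in HUCCT1 (adjusted p = 1.3e-08, edgeR). IL6 (ENSG00000136244.12, chromosome 7, 22725884 to 22732002, plus strand) is overlapped on the opposite strand by IL6-AS1 and STEAP1B, which rose in HUCCT1 by 3.10 (adjusted p = 4.4e-08) and 3.07 (adjusted p = 3.6e-08). Its nearest other coding genes, RAPGEF5 at 368.7 kb (-1.36, adjusted p = 0.0812) and TOMM7 at 80.6 kb (0.25, adjusted p = 0.271), did not pass. LIF-AS2 rose by 0.39 (adjusted p = 0.0325) and FCMR by 0.44 (adjusted p = 0.0126) in HUCCT1. The remaining nearest coding genes, HORMAD2, GSTM5 and IL20, did not pass the filter on low counts. The counting is not stated to use strand, so reads from IL6 and these partners cannot be told apart, and the same holds for LIF with LIF-AS1 and LIF-AS2 and for IL24 with FCMR. IL6-AS1 had 9 to 16 counts in vehicle and 100 to 121 under decitabine, against 6522 and 6963 for IL6. IL6-AS1 and STEAP1B, the latter with 9 to 21 counts in vehicle, entered the test only through the decitabine libraries.

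Across the 8 EGI-1 libraries, the patterns of the members resembled each other to different degrees, as Pearson correlations of log2 CPM over libraries that share treatments. They are descriptions over 4 groups. IL11 followed IL6 at 0.91, CSF2 at 0.90, CSF3 at 0.85 and IL24 at 0.83, CSF3 followed IL24 at 0.91, and CSF2 followed IL24 at 0.61. LIF had negative correlations with 5 members, the lowest -0.65 with both IL6 and CSF2, and 0.44 with CSF1, and CSF1 lay between -0.29 and 0.44 with every other member. Among 12827 genes, those most like each member were DBN1 (0.998), FLNC (0.996) and IFI6 (0.995) for IL11, SNHG16 (0.995), SH2D5 (0.994) and BCAT2 (0.993) for CSF2, MELTF (0.993), LMF2 (0.992) and TMEM175 (0.992) for IL6, and ARFGAP3 (0.984), MCC (0.981) and TBC1D20 (0.980) for IL24. For CSF3 they were LPXN (0.984), MLF1 (0.982) and SIGLEC15 (0.979), for LIF PPIL2 (0.978), VCPKMT (0.971) and DGKG (0.950), and for CSF1 PYM1 (0.952), MYO18A (0.946) and TMEM51-AS2 (0.943).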

How the data were processed

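RNA sequencing libraries of EGI-1 and HUCCT1 cells were analysed, 2 per group in 6 groups taken from the sample labels. The authors deposited raw counts per gene, which are not normalised. The methods, which describe EGI-1, name fastp, STAR and RSEM on GRCh38 and a stranded total RNA kit, whereas the submitters' processing notes name fastp, Trim Galore, HISAT2 and featureCounts on GRCh38. The annotation, the use of strand and the handling of multimapping reads are not given in the sources used here.

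From the counts, genes were kept by filterByExpr, scaled by TMM and tested by edgeR 4.0.16 in R 4.3.3 with Benjamini-Hochberg adjustment and a threshold of 0.05. EGI-1 (22406 genes), HUCCT1 (22479) and all 12 libraries (25096) were fitted separately, with no covariates, in 9 comparisons. Symbols, positions and exon lengths came from GENCODE 44 (60437 of 60651 genes matched) and promoters from RefSeq. Likeness used log2 of CPM plus 0.5. All members, then up to 6 called genes per list by adjusted p, and all receptors, were named. STAT3, FCMR and the marker genes were named after their values were seen. The members and lists were chosen with earlier results of these data known. The fits were tested on simulated data. Alternatives were DESeq2 size factors, upper-quartile scaling, no filter, the DESeq2 1.42.0 Wald test, a replicate block, the libraries of each comparison alone, and leaving out each library. MANE lengths and the T lymphocyte genes were added after seeing the data. Intervals on counts cover counting error only. Summed levels of the leukocyte markers are not reported here.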

Additional observations from a re-analysis of the deposited data

Results flagged for a closer look

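The decitabine change against vehicle was larger in HUCCT1 than in EGI-1 for each of the 6 members other than CSF3. This was a quasi-likelihood test of the difference itself in edgeR, with Benjamini-Hochberg adjusted p under 0.05. Over all 25096 genes tested, 8.74% were larger in HUCCT1. The difference on the log2 scale was 4.64 for IL6, 3.11 for CSF2, 1.56 for IL24, 0.72 for IL11, 0.56 for CSF1 and 0.44 for LIF. With 1 library left out at a time it ranged from 0.39 to 0.73 for CSF1 and from 0.33 to 0.55 for LIF. Some of these CSF1 and LIF fits missed the threshold, as given above. The fitted difference of CSF3 was 10.25. CSF3 entered the test only through the groups where it was high. The doses were 1 µM in HUCCT1 and 0.5 µM in EGI-1, and dose, medium, lane and line cannot be told apart.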

How the results depend on the processing

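Of the 37 member results that passed the threshold, 346 of 392 values under other settings stayed past it, 46 no longer passed and 0 changed direction. Of the 26 that did not pass, 290 of 300 were unchanged in call and direction, 3 passed and 7 changed sign near 0. CSF3 is included in these values, although it entered the tests only through the groups where it was high. With 1 library left out at a time, the log2 fold change of IL11 ranged from 1.00 to 1.13 under EGI-1 decitabine and 1.17 to 1.42 under talazoparib. For the combination against talazoparib it ranged from 0.69 to 0.95. The ranges of IL24 in these comparisons were 1.15 to 1.52, 0.51 to 0.88 and 0.75 to 0.90. Those of CSF2 were 0.49 to 0.74 under talazoparib and 0.32 to 0.44 for the combination against talazoparib. The values that changed sign ranged, with 1 library left out, from -0.06 to 0.16 for CSF1 under EGI-1 decitabine, -0.02 to 0.06 for LIF under talazoparib, -0.10 to 0.02 for CSF1 in the combination, -0.20 to 0.02 for CSF1 against decitabine, and -1.10 to 0.30 for CSF3 beyond the summed single agents. A fit that leaves out 1 library has a lone library in that group, which is assumed to vary like the others.

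Groups share replicate numbers, but no label says that a number marks a shared culture, and same-numbered EGI-1 libraries deviated together with correlations of -0.27 to 0.19 (HUCCT1 0.29, from 1 pair of groups). With a replicate block by number, the 6 members other than CSF3 lost these calls by edgeR. They were IL24 under talazoparib (0.69, adjusted p = 0.0738), LIF in the combination against decitabine (-0.21, adjusted p = 0.0604) and CSF2 in the combination against talazoparib (0.38, adjusted p = 0.11). The other calls on these members that were tested this way were kept, and none was gained. CSF3 had 2.47 under EGI-1 decitabine. The EGI-1 library names also form a lettered and a numbered series that cross the replicate numbers. A replicate block by that series called 2, 2, 5, 2, 3 and 0 members in the 6 EGI-1 comparisons in the same order. The 5 and the 3 include CSF3, which entered the tests only through the groups where it was high. They therefore cannot be set beside the counts of the 6 other members given above. On those 6 members the block by series lost the same calls as the block by number. The share of all genes called under this block is not given here. Depth limited CSF3 in EGI-1 and in HUCCT1 vehicle, which had 0 to 5 counts in the vehicle libraries.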
